A study of Mus musculus with 30 samples.

Results

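Genes of the endoplasmic reticulum and integrated stress responses were followed in lumbar dorsal root ganglia of mice given the drugs of the CVAD chemotherapy regimen. The 10 genes were taken by symbol from a table of 56686 genes: the chaperones and folding enzymes Hspa5, Hsp90b1, Pdia4 and Pdia6, the degradation factor Herpud1, the transcription factors Atf4, Xbp1 and Ddit3, and the effectors Trib3 and Asns. Wild-type male C57BL/6J mice received saline, CVAD, cyclophosphamide, vincristine, doxorubicin or dexamethasone, and ganglia L3 to L5 of both sides were taken on day 2 or day 8. CVAD is the usual name of the combination of these 4 drugs. Day 2 has saline, CVAD, cyclophosphamide and dexamethasone, day 8 has these and vincristine and doxorubicin, and the 10 groups hold 3 libraries each. The labels give no dose, and they do not say whether a library is 1 animal or a pool, so p-values measure only the spread between these samples.

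The endoplasmic reticulum folds secreted and membrane proteins, and unfolded protein in it sets off the unfolded protein response through the sensors IRE1, PERK and ATF6. IRE1 splices the mRNA of XBP1, ATF6 is cut to release a transcription factor, and PERK phosphorylates eIF2, which slows translation while that of ATF4 goes up. Other eIF2 kinases, which sense amino acid shortage, viral RNA or lack of heme, feed the same ATF4 branch, known as the integrated stress response. Sensory neurons make large amounts of membrane and secreted protein for long axons, and satellite glia and Schwann cells make membrane and myelin. The splicing of Xbp1 and the phosphorylation of eIF2 are not seen in a table of RNA levels per gene.

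The 250 bases upstream of the start of each gene were searched for 4 motifs of these pathways, in RefSeq promoter sequences of GRCm38.p6, where all 10 genes matched by symbol. The promoters of Hspa5, Hsp90b1, Pdia6 and Herpud1, which are among the genes with a match, are shown 5′ to 3′ on the strand of the gene, with motif matches in capitals. Trib3 and Xbp1, which recur in the comparisons below, had no match and are not shown. Whether a match goes with a difference between groups was not tested. The Hspa5 window is chr2:34771840-34772089 on the plus strand, that of Hsp90b1 chr10:86705445-86705694 on the minus strand, that of Pdia6 chr12:17266339-17266588 on the plus strand and that of Herpud1 chr8:94386179-94386428 on the plus strand.
Hspa5: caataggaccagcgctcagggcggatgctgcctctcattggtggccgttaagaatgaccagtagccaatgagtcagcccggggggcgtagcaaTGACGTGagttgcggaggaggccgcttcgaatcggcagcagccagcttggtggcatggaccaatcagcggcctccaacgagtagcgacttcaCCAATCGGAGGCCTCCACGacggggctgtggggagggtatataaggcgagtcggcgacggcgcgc
Hsp90b1: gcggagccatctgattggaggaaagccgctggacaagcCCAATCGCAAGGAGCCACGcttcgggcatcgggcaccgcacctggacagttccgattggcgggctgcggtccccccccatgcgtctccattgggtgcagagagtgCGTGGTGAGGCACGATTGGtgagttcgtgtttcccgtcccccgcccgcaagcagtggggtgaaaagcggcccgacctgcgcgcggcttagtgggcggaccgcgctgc
Pdia6: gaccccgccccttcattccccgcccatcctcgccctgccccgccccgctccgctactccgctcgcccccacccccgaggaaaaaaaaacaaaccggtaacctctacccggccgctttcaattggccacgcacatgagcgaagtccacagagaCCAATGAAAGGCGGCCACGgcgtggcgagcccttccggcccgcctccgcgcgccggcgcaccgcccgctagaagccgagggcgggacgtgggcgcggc
Herpud1: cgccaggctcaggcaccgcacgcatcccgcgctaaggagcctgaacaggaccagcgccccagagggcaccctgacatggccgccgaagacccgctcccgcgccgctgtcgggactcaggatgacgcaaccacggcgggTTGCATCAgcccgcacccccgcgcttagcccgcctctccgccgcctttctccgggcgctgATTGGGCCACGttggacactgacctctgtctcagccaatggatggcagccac

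The endoplasmic reticulum stress element, CCAAT and CCACG with 9 free bases between them and known as a site of ATF6 with NF-Y, matched on either strand in Hspa5, Hsp90b1 and Pdia6. Among 32851 promoters of the same length 0.113% held it. Its matches lie 65 to 47 bases before the start in Hspa5, 98 to 80 in Pdia6, and 212 to 194 and, on the other strand, 107 to 89 in Hsp90b1. The second form of the element, ATTGG and CCACG with 1 free base between them, matched in Herpud1, 52 to 42 bases before the start, and in 0.0304% of all promoters. The amino acid response element TGATGNAA, known as a site of ATF4 with C/EBP factors, matched in Herpud1 (112 to 105 bases before the start, on the other strand) and in Asns (23 to 16), against 3.45% of all promoters. The core TGACGTG, known as an XBP1 and ATF6 site, matched in Hspa5, 157 to 151 bases before the start, against 1.65%. Matches did not overlap in these windows. A match is a description of letters in this window and not of binding, and in Pdia4, Ddit3, Atf4, Xbp1 and Trib3 none of the 4 was found in it.

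Values are TPM, which set each library to a common total, so the depth is not known and no counting interval can be given. A gene was tested, with limma on log2(TPM + 1), where 3 or more libraries reached 1 TPM, which left 25434 genes, all 10 stress genes among them. Adjusted p-values run over all tested genes. Protein-coding genes held 60.5 to 73.8% of the TPM of a library. The 12 listed sensory neuron markers were above 0 in each library and summed to 2290 to 3256 TPM, and markers of satellite glia, Schwann cells, skeletal muscle and spinal cord were present too. The 10 genes are known from most cell types, and fewer cells of a type and less RNA per cell cannot be told apart in bulk ganglia.

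Of the 10 genes, 9 were abundant. Averaged over 30 libraries, Hsp90b1 (the chaperone GRP94, ENSMUSG00000020048.14, chromosome 10, 86526073 to 86541373) stood at 123 TPM and Hspa5 (BiP, the main chaperone of the compartment, ENSMUSG00000026864.14, chromosome 2, 34661982 to 34667559) at 121. Next came Atf4 (ENSMUSG00000042406.9, chromosome 15, 80139385 to 80141742) at 97.6, Asns, which encodes asparagine synthetase (ENSMUSG00000029752.13, chromosome 6, 7675169 to 7693254), at 93.6, and Xbp1 (ENSMUSG00000020484.20, chromosome 11, 5470659 to 5475893) at 93.0. The disulfide isomerase genes Pdia6 (ENSMUSG00000020571.14, chromosome 12, 17316546 to 17334771) and Pdia4 (ENSMUSG00000025823.10, chromosome 6, 47773075 to 47790364) averaged 86.7 and 65.0 TPM, and Herpud1, a membrane protein of the degradation machinery (ENSMUSG00000031770.17, chromosome 8, 95113066 to 95122005), 71.9. Ddit3, which encodes the stress factor CHOP (ENSMUSG00000025408.16, chromosome 10, 127126643 to 127132157), averaged 37.7 TPM. Trib3, a pseudokinase gene that ATF4 and CHOP switch on (ENSMUSG00000032715.10, chromosome 2, 152179342 to 152185952), was the lowest at 7.81 TPM. Coordinates are as the deposited table gives them. The submitters' notes name the builds mm10, which is GRCm38 under another name, and GRCm39. The Hspa5 start given here does not adjoin its GRCm38.p6 promoter window, which ends at 34772089. The table's coordinates are therefore not those of GRCm38, on which the promoter windows lie, which leaves GRCm39 of the named builds. A second, overlapping Ddit3 entry reached at most 0.473 TPM and was not used.

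These levels varied little. The highest of 30 libraries exceeded the lowest 1.34-fold for Atf4 and 1.95-fold for Trib3, and the other 8 ratios lay between. CVAD had the lowest group mean on day 2 for 7 of the 10 genes, where 12.5% of all tested genes had theirs, and the highest group mean on day 8 for 8, against 16.9%. Both held for 6 genes, against 2.58% of tested genes. After median-ratio scaling the counts were 7, 5 and 3, against 17.2, 10.2 and 1.74% of tested genes. In the order of the 10 group means of a gene, neighbouring groups overlapped in each case for 9 genes and in 8 of 9 cases for Hspa5.

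**Figure D1:**
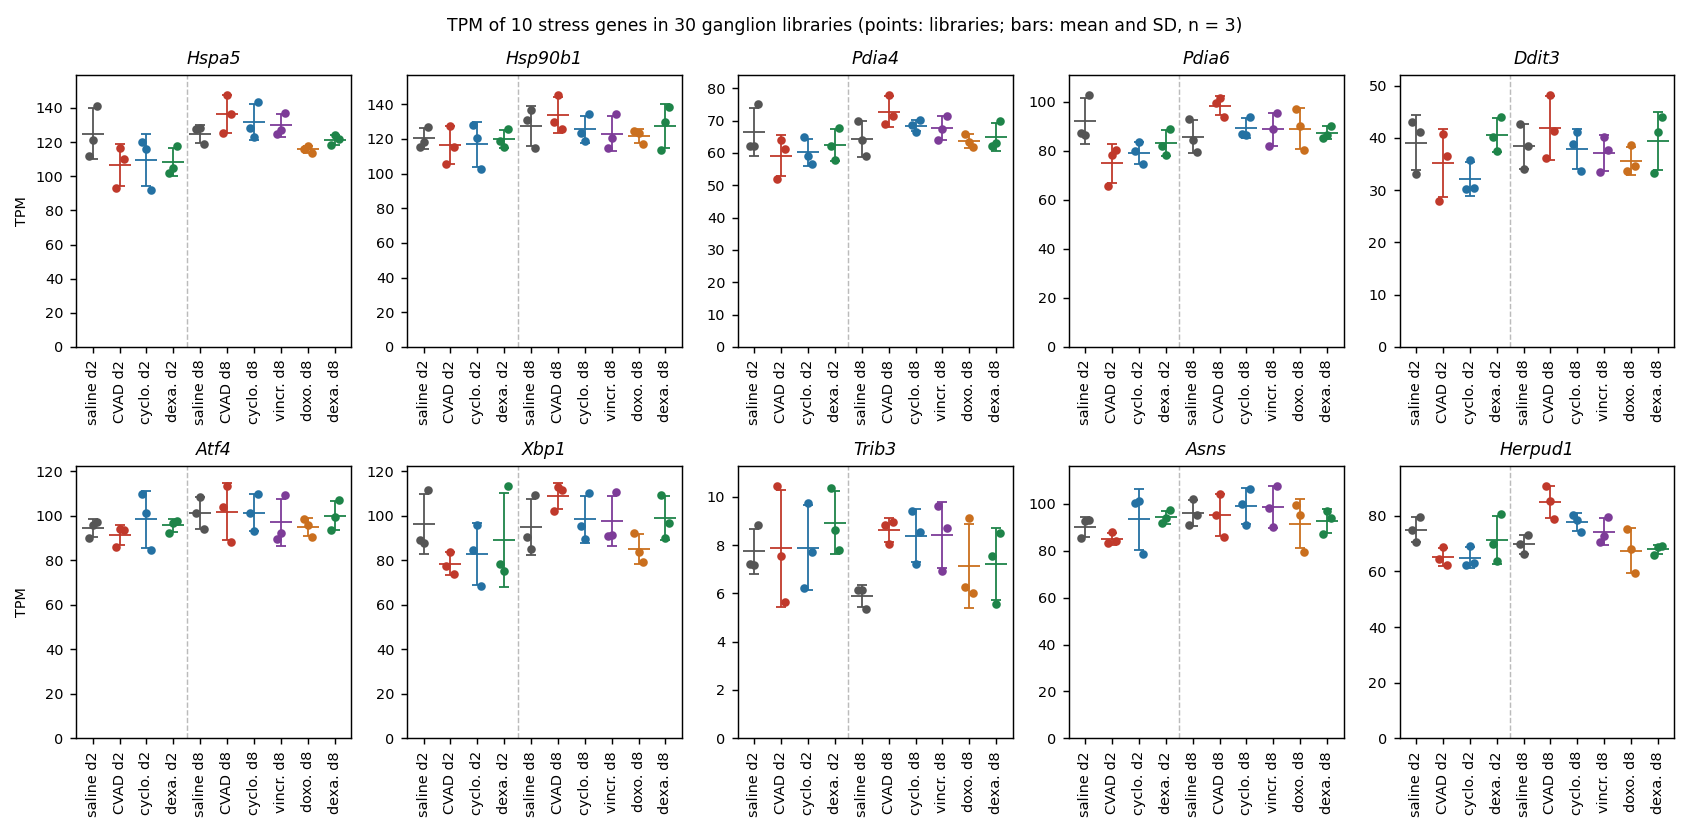
TPM (y axes, from 0) of each gene in the 10 drug and day groups (x axes, d2 and d8 for the days). Points are libraries and bars the mean and SD of 3. For Pdia6 and Herpud1 the CVAD points lie below those of saline on day 2 and above them on day 8, closest for Pdia6 on day 8, where the lowest CVAD library stands at 94.0 and the highest saline library at 92.9.

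On day 2 all 10 genes had lower mean log2 levels in CVAD than in saline, and on day 8 it was 9 of 10 higher. Many of the genes varied together between libraries of a group, as described below. These and the other counts of genes are therefore not counts of separate results. The differences were small: −0.30 to −0.0091 on the log2(TPM + 1) scale on day 2 (median −0.16, against 0.069 over all tested genes) and −0.018 to 0.48 on day 8 (median 0.15, against 0.017). Among all tested genes 65.9% were higher on day 2 and 54.2% on day 8. After median-ratio scaling 10 of 10 were lower on day 2 and 8 of 10 higher on day 8. No stress gene passed the adjusted threshold of 0.05 on either day, where 0.0432% and 0% of tested genes did by limma. At an unadjusted p under 0.05 stood 3 on day 2, all lower (background over all tested genes 1.22%), and 3 on day 8, all higher (3.2%). The groups did not overlap for 3 genes on day 2 (background 2.27% in that direction) and for 3 on day 8 (5.41%). On day 2 the median was −0.10 without saline replicate 3 and −0.11 without CVAD replicate 1, and in both cases 1 gene had an unadjusted p under 0.05, against 5 without CVAD replicate 2 or saline replicate 2 and 2 without CVAD replicate 3. On day 8 the median was 0.10 without CVAD replicate 2, and 1 gene had such a p without saline replicate 3 and 2 without CVAD replicate 2, CVAD replicate 3 or saline replicate 2.

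Pdia6, which forms and rearranges disulfide bonds in folding proteins, had the smallest p on day 2. It stood at 65.7, 78.4 and 80.5 TPM in CVAD and 87.0, 86.5 and 103 in saline on day 2. On day 8 it stood at 99.5, 101 and 94.0 TPM in CVAD and 92.9, 84.6 and 79.5 in saline. All 3 CVAD libraries were below all saline libraries on day 2 and above them on day 8. The log2 fold change was −0.30 ± 0.087 (SE) on day 2 (adjusted p = 0.277) and 0.20 ± 0.087 on day 8 (adjusted p = 0.779). After median-ratio scaling the day 2 value was −0.38 and passed (adjusted p = 0.0387), so the call depends on the scaling.

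Hspa5 encodes BiP, which holds the sensors inactive until unfolded protein draws it away. On day 2 it stood at 93.1, 117 and 110.0 TPM in CVAD and 112, 121 and 141 in saline. On day 8 CVAD had 125, 148 and 136 TPM and saline 128, 128 and 119. The groups overlapped on both days, with 2 of 3 CVAD libraries below all saline libraries on day 2. The log2 fold change was −0.23 ± 0.10 on day 2 (adjusted p = 0.533) and 0.13 on day 8, with a 95% confidence interval of −0.076 to 0.33.

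The other chaperone genes differed less on day 2, while on day 8 the log2 fold change of Pdia4 (0.18) was above that of Hspa5 (0.13). Pdia4, a larger disulfide isomerase, averaged 59.2 ± 6.29 TPM (SD, n = 3) in CVAD and 66.5 ± 7.41 in saline on day 2, and 72.8 ± 4.69 and 64.4 ± 5.47 on day 8. Hsp90b1, which folds integrins and Toll-like receptors, averaged 116 ± 11 TPM and 120.3 ± 6.06 on day 2 and 134 ± 10.4 and 127 ± 11.5 on day 8. Both overlapped with saline on both days.

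Herpud1, which helps to pass misfolded protein to the ubiquitin ligase HRD1, had the smallest p of the 10 genes on day 8. It stood at 90.7, 85.3 and 79.0 TPM in CVAD and 69.8, 66.1 and 73.2 in saline on day 8. On day 2 CVAD had 64.4, 68.9 and 62.4 TPM and saline 74.9, 70.6 and 79.7. As with Pdia6, every CVAD library was below the saline libraries on day 2 and above them on day 8. The log2 fold change was 0.28 ± 0.086 on day 8 (adjusted p = 0.488 by limma) and −0.20 ± 0.086 on day 2 (adjusted p = 0.532).

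Of the transcription factors, Xbp1 had the widest span of group means. It stood at 77.5, 83.8 and 73.8 TPM in CVAD and 89.2, 87.9 and 112 in saline on day 2, where the groups did not overlap. On day 8 CVAD had 102, 113 and 112 TPM and saline 90.5, 84.9 and 109, with overlap. Its log2 fold changes, −0.29 on day 2 and 0.20 on day 8, had adjusted p-values of 0.612 and 0.934 by limma. Ddit3 averaged 35.1 ± 6.52 TPM in CVAD and 39.1 ± 5.24 in saline on day 2, and 41.9 ± 6.11 and 38.4 ± 4.26 on day 8. The CHOP gene thus differed by less than the spread between libraries. Atf4, whose protein level is set mostly by translation, averaged 102 ± 12.8 TPM in CVAD and 101 ± 7.15 in saline on day 8. The interval of its log2 fold change was −0.25 to 0.15 on day 2 and −0.20 to 0.20 on day 8.

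Trib3 and Asns are both known targets of ATF4. Trib3 stood at 8.85, 8.05 and 8.96 TPM in CVAD and 6.13, 6.15 and 5.36 in saline on day 8, with no overlap and a log2 fold change of 0.48 ± 0.19 (adjusted p = 0.714). Saline on day 8 was the lowest of all 10 groups for Trib3, and saline on day 2 stood at 7.21, 7.19 and 8.82 TPM. Between these 2 saline groups the log2 difference was −0.34 ± 0.19 (day 8 minus day 2, adjusted p = 0.749), the smallest p among the 10 genes. Of these, 4 were higher and 6 lower, 3 and 7 after median-ratio scaling (64.5% of tested genes were higher), 1, Trib3, was lower with no overlap (background 2.09%), and 0 had an unadjusted p under 0.05 (6.93% of tested genes) or passed the adjusted threshold (0.00393%). After median-ratio scaling 3 genes had such a p, and without saline replicate 3 of day 2 the balance turned to 7 higher and 3 lower (median 0.067, against −0.022). On day 2 Trib3 averaged 7.87 ± 2.43 TPM in CVAD and 7.74 ± 0.93 in saline. Asns averaged 95.1 ± 8.99 TPM in CVAD and 96.1 ± 5.48 in saline on day 8, with an interval of the log2 fold change of −0.21 to 0.18.

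**Figure D2:**
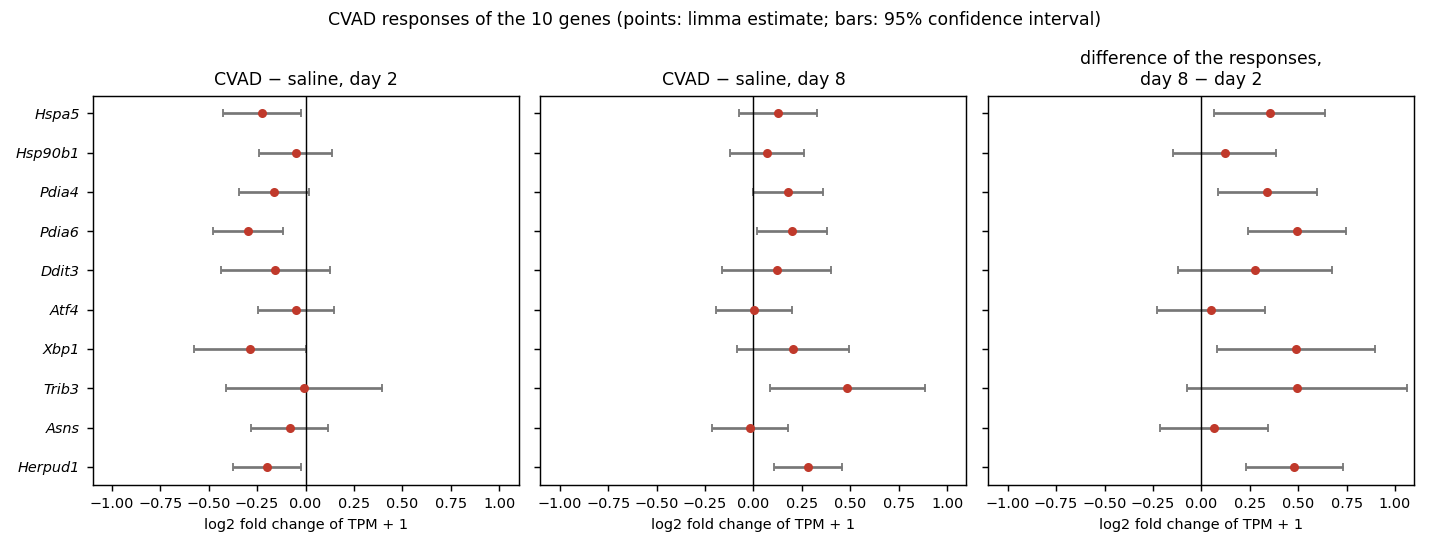
Log2 fold change of TPM + 1 (x axes) for each gene, as the limma estimate with its 95% confidence interval, for CVAD against saline on day 2 and on day 8 and for the difference between both responses. The estimates are below 0 for 10 of 10 genes on day 2, above 0 for 9 of 10 on day 8 and above 0 for 10 of 10 in the difference.

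The day 8 minus day 2 difference of the CVAD response compares both days, each set against its own saline group. It was above 0 for 10 of 10 genes (median 0.35, against −0.046 over all tested genes, of which 42.2% were above 0). With a term for library numbers 1 to 8 in the model it was above 0 for 8 genes, with a median of 0.13 and 0 genes at an unadjusted p under 0.05. Pdia6 differed by 0.50 ± 0.12 (adjusted p = 0.123 by limma) and Herpud1 by 0.48 ± 0.12 (adjusted p = 0.134). Xbp1 followed at 0.49 ± 0.20, Hspa5 at 0.35 ± 0.14 and Pdia4 at 0.34 ± 0.12, with adjusted p-values of 0.428, 0.411 and 0.354. These 5 had an unadjusted p under 0.05 (background 2.34% in this direction), 2 without saline replicate 3 of day 2, and 0 passed the adjusted threshold, which 0.0826% of tested genes did. Pdia6 and Herpud1 passed it after median-ratio scaling (adjusted p = 0.0185 and 0.0289) and when levels were taken per total of protein-coding TPM (0.0109 and 0.0379), the latter scaling chosen after the data were seen. For cyclophosphamide the difference was 0.36 ± 0.12 for Herpud1 (adjusted p = 0.32) and 0.27 ± 0.12 for Pdia6 (adjusted p = 0.49), 2 genes at an unadjusted p under 0.05 (background 1.43%), with 9 of 10 above 0 (32.5% of tested genes) and 0% of tested genes past the adjusted threshold. Median-ratio scaling moved the median of this difference over all genes from −0.11 to 0.000067, and 10 of 10 stress genes were then above 0. For dexamethasone no stress gene had an unadjusted p under 0.05 (background 4.92%, and 0% past the adjusted threshold), 7 were above 0 (35.4% of tested genes, and 9 after median-ratio scaling), and Pdia6 had the smallest p at 0.18 ± 0.12 (adjusted p = 0.932). With the term for library numbers 1 to 8, 6 genes were above 0 for cyclophosphamide and 3 for dexamethasone, and without saline replicate 3 of day 2 it was 7 and 4. The differences of the drugs share both saline groups.

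The day 2 levels of Pdia6 and Herpud1 also parted by the library numbers in the labels, which do not say what the numbers record. Libraries 1 to 8 are all 3 CVAD, all 3 cyclophosphamide and 2 dexamethasone libraries, library 9 is the third of dexamethasone, and 10 to 12 are saline. Pdia6 stood at 65.7 to 83.4 TPM in libraries 1 to 8 and at 86.5 to 102.8 in libraries 9 to 12. Herpud1 stood at 62.4 to 69.9 and 70.6 to 80.7. Neither overlapped, and 0.291% of tested genes were lower in libraries 1 to 8 without overlap, while the other 8 stress genes overlapped. Both genes already lay below saline with no overlap in CVAD and in cyclophosphamide. The split thus adds only the dexamethasone libraries, and the share is no separate evidence. Within dexamethasone 9 of 10 genes were lower in both of libraries 7 and 8 than in library 9, against 18.7% of tested genes. Xbp1 stood at 78.4, 75.3 and 113 TPM in libraries 7, 8 and 9, and Herpud1 at 69.9, 63.6 and 80.7. The day 2 levels of CVAD and cyclophosphamide and their place among the library numbers cannot be told apart.

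The labels mark no boundary after library 8. A term for libraries 1 to 8 in the model rests on those 3 dexamethasone libraries, of which library 9 was highest for 9 of 10 genes. Its size thus depends on that 1 library, and what it stands for cannot be told. It was −0.55 for Xbp1 (adjusted p = 0.396 by limma) and −0.27 for Herpud1 (adjusted p = 0.626). With the term in place CVAD on day 2 was lower for 5 genes and higher for 5, and Herpud1 stood at 0.072 in CVAD and 0.066 in cyclophosphamide. The CVAD difference between days was then above 0 for 8 genes and not 10, its median 0.13 and not 0.35, and 0 and not 5 genes had an unadjusted p under 0.05. Xbp1 in this difference was −0.065. The day 8 fold changes do not involve libraries 1 to 8, but their SE and p-values use the spread of all 30 libraries. Each group is also a run of consecutive library numbers, on day 8 13 to 15 for CVAD and 28 to 30 for saline. Group and library number thus cannot be told apart on day 8 or between the saline groups either. With a model per day, 4 and not 3 stress genes had an unadjusted p under 0.05 by limma for CVAD on day 8.

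**Figure D3:**
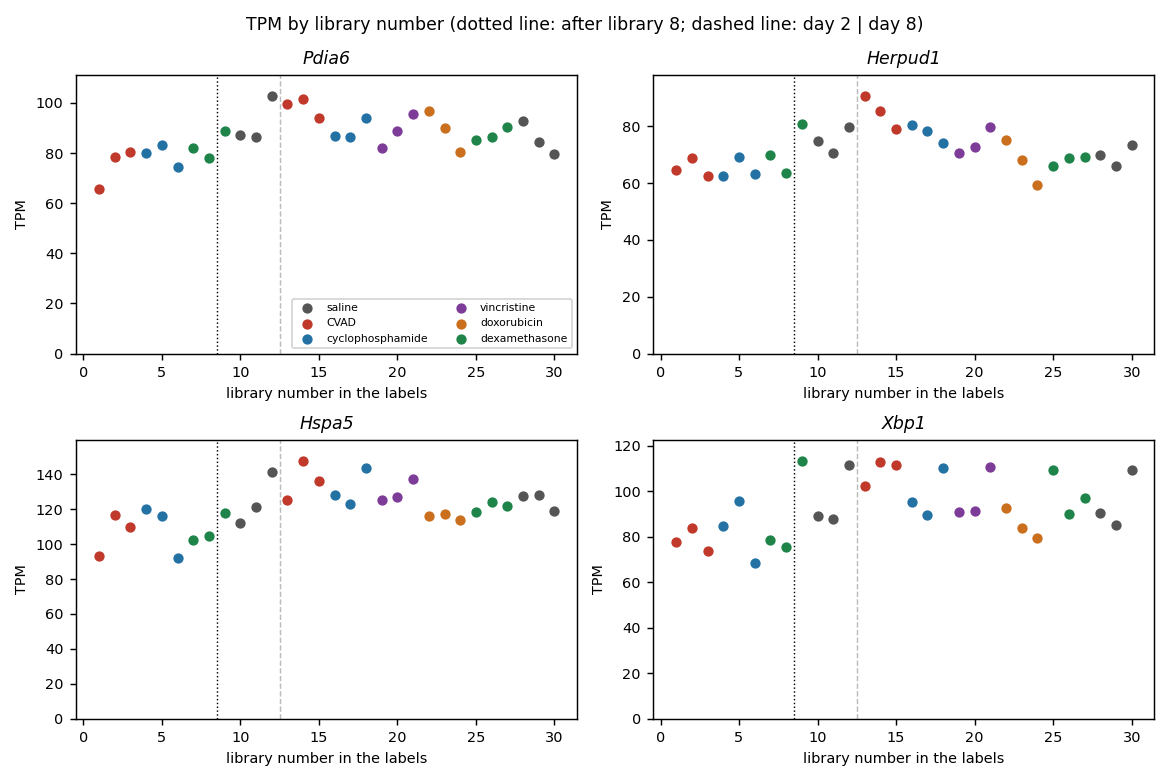
TPM (y axes, from 0) of Pdia6, Herpud1, Hspa5 and Xbp1 against the library number of the labels (x axes), coloured by drug. The dotted line follows library 8 and the dashed line parts day 2 from day 8, and all Pdia6 and Herpud1 points left of the dotted line lie below those of libraries 9 to 12.

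Cyclophosphamide, an alkylating agent, was compared with saline on day 2, when 7 of 10 genes were lower (median −0.17, against 0.062 over all tested genes, of which 64.7% were higher). Pdia6 stood at 79.9, 83.4 and 74.4 TPM in cyclophosphamide (−0.21 ± 0.087 on the log2 scale, adjusted p = 0.588) and Herpud1 at 62.4, 69.3 and 63.2 (−0.21 ± 0.086, adjusted p = 0.599). Both groups lay below saline with no overlap (background 2.95%), these 2 had an unadjusted p under 0.05 (1.53%), and 0 of 10 genes passed the adjusted threshold (0.0118% of tested genes). The median was −0.075 without saline replicate 3 and −0.080 without cyclophosphamide replicate 3, with 0 such genes in both cases and 5 without cyclophosphamide replicate 2, and after median-ratio scaling 10 of 10 genes were lower. Dexamethasone, a synthetic glucocorticoid, had 6 of 10 genes lower on day 2, where 65.3% of tested genes were higher. None lay apart from saline (background 1.88%), had an unadjusted p under 0.05 (5.37%) or passed the adjusted threshold (0.00393%). Hspa5 had the smallest p there, at 102, 105 and 118 TPM (−0.20 ± 0.10, adjusted p = 0.922). After median-ratio scaling 9 of 10 were lower. With the term for libraries 1 to 8 the balance turned to 8 higher and 2 lower, and to 6 higher and 4 lower without saline replicate 3 (median 0.020, against −0.040) or dexamethasone replicate 2 (0.0061).

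For the single drugs on day 8, 0 of 10 genes passed the adjusted threshold of limma in any of the 4 comparisons with saline (0.00786% of tested genes for cyclophosphamide, 0% for vincristine, 0% for doxorubicin and 0% for dexamethasone). Trib3 had the smallest p in each, under 0.05 before adjustment for cyclophosphamide (background 1.19%) and vincristine (2.04%) and above it for doxorubicin and dexamethasone (3.35 and 3.26% of tested genes under it). It stood at 9.40, 7.23 and 8.55 TPM in cyclophosphamide (0.44 ± 0.19, adjusted p = 0.823) and 9.61, 6.92 and 8.71 in vincristine, which blocks tubulin assembly (0.44 ± 0.19, adjusted p = 1). It stood at 6.25, 9.13 and 6.02 in doxorubicin, a topoisomerase poison (0.22 ± 0.19), and at 7.56, 5.57 and 8.51 in dexamethasone (0.24 ± 0.19), each with an adjusted p of 1. These comparisons and that of CVAD share the same 3 saline libraries, in which Trib3 was lowest.

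With cyclophosphamide 7 of 10 genes were higher on day 8 and 2, Trib3 and Herpud1, did not overlap with saline (background 2.24%). Herpud1 stood at 80.4, 78.4 and 74.1 TPM there. With vincristine 7 were higher and 1, Trib3, did not overlap (background 3.46%). With doxorubicin 8 were lower and 1, Hspa5, did not overlap (116, 117 and 114 TPM, background 3.55%). With dexamethasone 5 were higher and 5 lower, and none lay apart from saline (background 2.01% higher, 4.51% lower). The medians of the 10 genes were 0.056, 0.047, −0.068 and 0.0077 in this order of drugs, against −0.041, 0.016, −0.018 and −0.023 over all tested genes, of which 37.9, 54.7, 43.9 and 43% were higher. After median-ratio scaling 10, 7, 3 and 7 of the 10 genes were higher. Leaving out 1 library moved several of these balances. Without vincristine replicate 3, 4 genes were higher and the median was −0.017. Without doxorubicin replicate 3, 5 were higher and 5 lower (median −0.012), and without cyclophosphamide replicate 3 the median was 0.016. The dexamethasone balance was 3 higher and 7 lower without dexamethasone replicate 3 (median −0.045) or saline replicate 3 (−0.032). Trib3 no longer had an unadjusted p under 0.05 without replicate 1 or 3 of cyclophosphamide in that comparison, without replicate 1 or 3 of vincristine in the other, or without saline replicate 3 in either.

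CVAD was also set against each single drug. These comparisons share the CVAD libraries with those against saline and are no second evidence. On day 8 all 10 genes were higher in CVAD than in doxorubicin (median 0.20, against 0.035 over all tested genes, of which 59.6% were higher), 5 of them with no overlap (background 5.83%). Herpud1 stood at 75.3, 68.0 and 59.3 TPM in doxorubicin (log2 difference 0.33 ± 0.086, adjusted p = 0.439 by limma) and Xbp1 at 92.4, 83.7 and 79.2 (0.35 ± 0.14, adjusted p = 1). Hspa5 differed by 0.23 ± 0.10 and Pdia4 by 0.19 ± 0.088 (adjusted p = 1 for both). These 4 had an unadjusted p under 0.05 (background 3.18%), 1 without CVAD replicate 2 or doxorubicin replicate 3, and the median was 0.13 without CVAD replicate 2.

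Against dexamethasone on day 8 all 10 genes were higher too, as 60.9% of tested genes were, 3 with no overlap (background 6.78%). Herpud1, the 1 gene with an unadjusted p under 0.05 (background 3.11%), stood at 65.9, 68.7 and 69.1 TPM in dexamethasone (0.32 ± 0.086, adjusted p = 0.549). After median-ratio scaling 8 of 10 were higher, without dexamethasone replicate 1 it was 6 of 10, and without CVAD replicate 2 it was 7 of 10. Against vincristine 9 of 10 were higher (49.6% of tested genes), none without overlap (background 3.62%). Herpud1, again the 1 gene with such a p (background 1.64%), stood at 70.6, 72.6 and 79.8 TPM in vincristine (0.19 ± 0.086, adjusted p = 1), and 0 genes had one without replicate 1 or 2 of CVAD or of vincristine. Against cyclophosphamide 9 of 10 were higher on day 8 (66% of tested genes, and 6 of 10 after median-ratio scaling), 1, Pdia6, with no overlap (background 8.98%), and the smallest p belonged to Pdia6, at 87.0, 86.5 and 93.9 TPM (0.14 ± 0.087, adjusted p = 0.94). On day 2 CVAD was lower than dexamethasone for 10 of 10 genes (53.2% of tested genes were higher), 1, Asns, with no overlap (background 3.56%), with the smallest p for Pdia6 (−0.15 ± 0.087). It was lower than cyclophosphamide for 8 (51.9% of tested genes were higher), none apart (background 2.78%), with the smallest p for Asns (−0.12 ± 0.10), and both adjusted p-values were 1. The balance against cyclophosphamide on day 2 turned to 6 higher and 4 lower without CVAD replicate 1 (median 0.010) or cyclophosphamide replicate 2 (0.015), from a median of −0.031. These last 3 comparisons had 0 genes at an unadjusted p under 0.05 (background 5.34, 3.66 and 3.83%). In all 6 comparisons 0 of 10 genes passed the adjusted threshold, which 0.00393% of tested genes did for cyclophosphamide on day 2 and 0% in the other 5.

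Markers of other cells differed between CVAD and saline on day 8. The sum of 9 neutrophil and precursor markers was 61.3 to 89.4 TPM in CVAD and 204 to 345 in saline, with 7 of 9 lower and S100a8 and S100a9 at 0 in every library. The 8 plasma and B cell markers, of cells rich in endoplasmic reticulum, summed to 31.8 to 75.1 and 74.5 to 132, with 8 of 8 lower. The 8 neuron injury markers summed to 275 to 346 TPM in CVAD and 249 to 271 in saline, with 6 of 8 higher and Sprr1a at 0 in every library. The adipocyte markers, 6 of 6 lower, summed to 36.2 to 94.9 and 94.4 to 161. Glucocorticoid responders were higher in 7 of 7 (395 to 658 and 344 to 469) and skeletal muscle markers in 10 of 10 (231 to 623 and 81.8 to 596). The 12 sensory neuron markers, 12 of 12 lower on average, summed to 2458 to 3049.8 and 2732 to 3226. On day 2 the sensory neuron sum was 2399.9 to 2759.9 TPM in CVAD and 2592 to 2755 in saline, with 9 of 12 lower. The Schwann cell sum was 1452 to 1687 and 1372 to 1543, with 7 of 7 higher. Neutrophil and precursor markers, lower on day 8, were higher on day 2 in 7 of 9 (141 to 275 TPM in CVAD and 89.1 to 149 in saline), and neuron injury markers were lower in 6 of 8 (225 to 241 and 233 to 297). Skeletal muscle markers were lower in 10 of 10 (115 to 849 and 99.2 to 1171) and spinal cord markers in 8 of 8 (92.9 to 179 and 83.8 to 222). Several day 8 directions were shared by single drugs, set against the same saline libraries. Neutrophil and precursor markers were lower in 7 of 9 with each single drug. With vincristine, doxorubicin and dexamethasone, 12 of 12 sensory neuron and 6 of 6 adipocyte markers were lower and 10 of 10 muscle markers higher. With cyclophosphamide 5 of 12, 5 of 6 and 10 of 10 of these were lower. Neuron injury markers were higher in 6 of 8 with CVAD and in 1 to 3 with single drugs. The part of these markers in the levels of the stress genes was not tested.

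A wider set of 78 genes of the same pathways, in 6 lists that hold the 10, was read in the same way. Of these 77 were tested and none passed the adjusted threshold in any of the 18 comparisons, while Hyou1, a large chaperone of the compartment, was listed at 0 in all 30 libraries. In CVAD on day 8, 54 of 77 were higher than in saline, with 10 at an unadjusted p under 0.05 higher and 0 lower. The 10 stress genes gave 9 of the former and 3 of the latter, so the set is not separate from them. Among all tested genes 54.2% were higher and 3.2% had such a p and were higher, the shares against which the counts of each list are to be read. The chaperone list had 13 of 16 higher (median 0.10) and the degradation list 10 of 11 (0.10). The stress transcription factors and effectors had 11 of 16 higher (0.092), the amino acid genes 8 of 12 (0.060), the sensors 6 of 10 (0.012) and the tRNA synthetases 6 of 12 (0.0038). The median over all tested genes was 0.017. The smallest p of the set belonged to Creld2, a chaperone gene induced by ATF6, at 26, 33.8 and 39.1 TPM in CVAD and 24.6, 18.1 and 16.2 in saline (0.72 ± 0.18, adjusted p = 0.291 by limma). All 3 CVAD libraries were above the saline libraries. As for Trib3, saline on day 8 was the lowest of all groups for Creld2, with a mean of 19.6 TPM. Saline on day 2 averaged 27.1 TPM, and the single drugs on day 8 averaged 23.5 to 25.5.

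In CVAD on day 2, 35 of the 77 genes were higher and 42 lower, where 65.9% of all tested genes were higher. Their median was −0.0094, against 0.069 over all tested genes. At an unadjusted p under 0.05 stood 3 higher and 4 lower (background 6.97% higher and 1.22% lower). The 4 lower ones were Pdia6, Hspa5, Herpud1 and Atf3, an injury and stress factor, and the 3 higher ones, named after their values were seen, were the eIF2 kinase genes Eif2ak4 (GCN2, 0.47) and Eif2ak2 (PKR, 0.34) and Ppp1r15a (GADD34, which directs the eIF2 phosphatase, 0.28), with adjusted p-values of 0.404, 0.408 and 0.543 by limma. In cyclophosphamide on day 2 the gene of smallest p was Atf3 (−0.96 ± 0.33, adjusted p = 0.528), and in dexamethasone on day 2 it was Ppp1r15a (0.28 ± 0.12, adjusted p = 0.891). On day 8 it was Trib3 for cyclophosphamide and vincristine, Selenos, a degradation factor, for doxorubicin (0.14 ± 0.079) and Iars, an isoleucyl-tRNA synthetase, for dexamethasone (−0.20 ± 0.092), the last 2 with an adjusted p of 1.

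**Figure D4:**
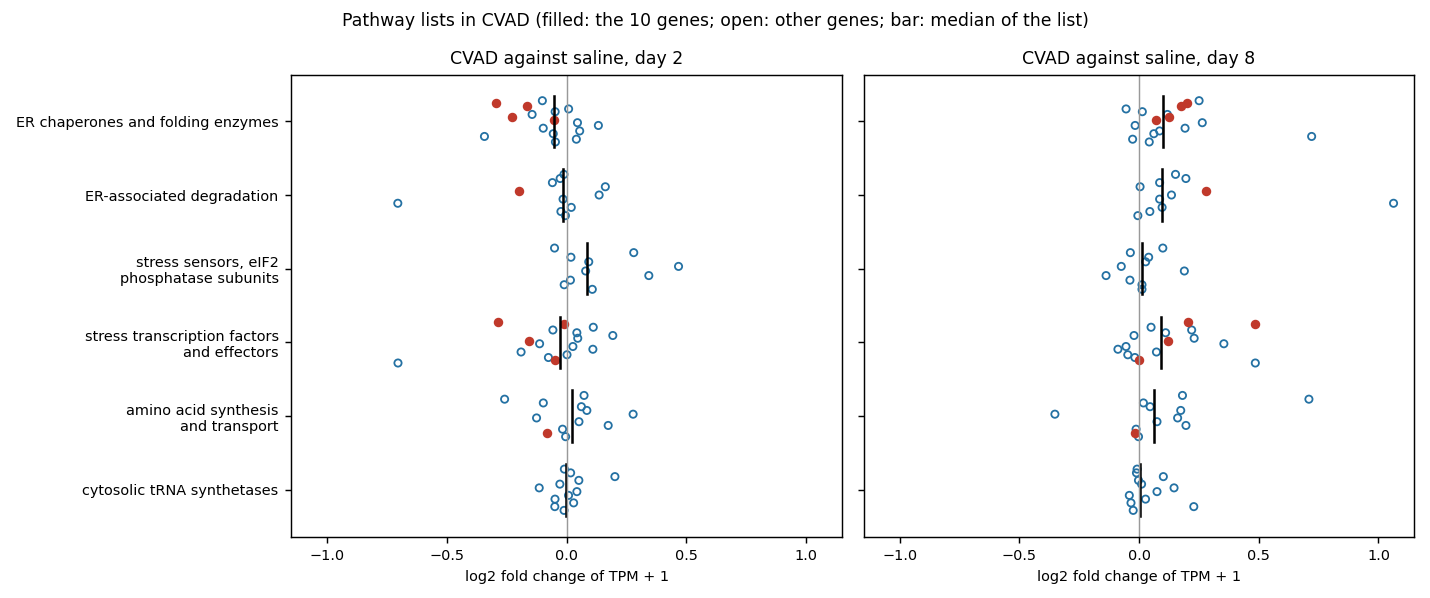
Log2 fold change of TPM + 1 (x axes) of the tested genes of 6 lists, 1 below the other, in CVAD against saline on each day. Filled points are the 10 stress genes, open points the others and bars the list medians, which on day 8 run from 0.0038 for the tRNA synthetases to 0.10 for the chaperones.

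Within groups several of the genes varied together from library to library. With group means removed, 39 of 45 pairs correlated positively over 30 libraries (median r = 0.45). By within-group permutation with 100000 resamples, adjusted over the 45 pairs, 21 passed 0.05 by Pearson's r and 22 by Spearman's rho, and after median-ratio scaling 11 passed by r. The share that would pass among pairs of other abundant genes was not computed, so these counts do not set the stress genes apart. For Hsp90b1 and Atf4 r = 0.883 (p = 1e-05, adjusted p = 0.000112) and rho = 0.905 (p = 1e-05, adjusted p = 9e-05), where 1e-05 is the smallest p that the resamples can give. For Pdia4 and Pdia6 r = 0.852 (p = 2e-05, adjusted p = 0.00018) and rho = 0.841 (p = 1e-05, adjusted p = 9e-05), and for Atf4 and its target Asns r = 0.842 (p = 4e-05, adjusted p = 0.0003) and rho = 0.843 (p = 3e-05, adjusted p = 0.000193). Without the 2 libraries farthest from the median these 3 r were 0.879, 0.798 and 0.785. The chaperones Hspa5, Hsp90b1, Pdia4 and Pdia6 correlated with each other at r of 0.728 to 0.852. Trib3 passed with none of the other 9 genes (r from −0.152 to 0.115), and for Ddit3 and Atf4 r = 0.159 (p = 0.477, adjusted p = 0.613) and rho = 0.167 (p = 0.457, adjusted p = 0.587).

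**Figure D5:**
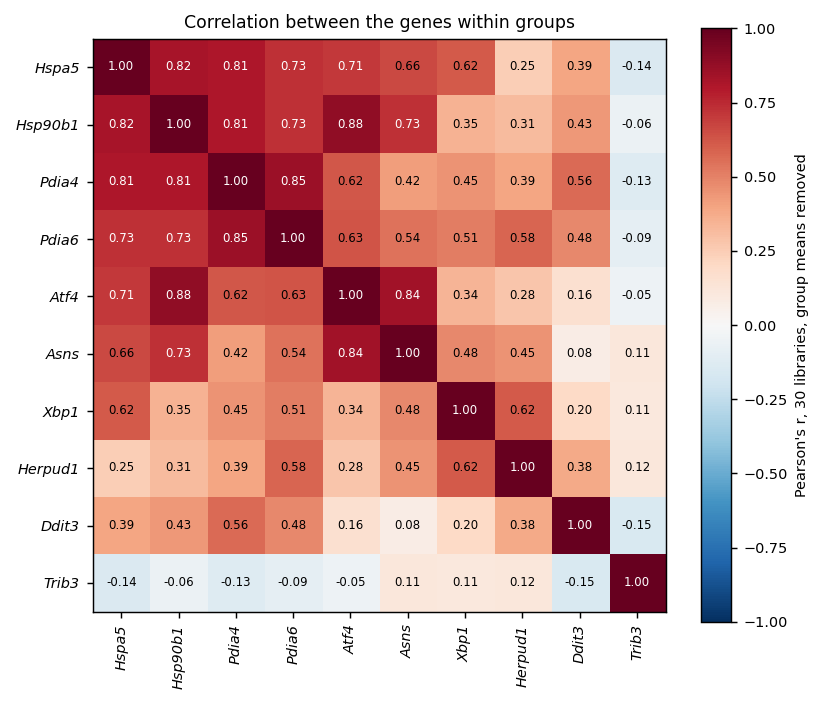
Pearson's r between the 10 genes over 30 libraries after removing group means, on log2(TPM + 1), from blue (negative) to red (positive). The 9 highest values lie among the 4 chaperones, Atf4 and Asns, up to 0.88 for Hsp90b1 with Atf4, and the Trib3 row stays between −0.15 and 0.12.

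The same residuals were set against 4 properties of the libraries, 40 relations chosen after the data were seen. For Atf4 and the summed sensory neuron markers r = 0.913 (permutation p = 3e-05, adjusted p = 0.0003) and rho = 0.888 (p = 2e-05), and r = 0.883 without the 2 libraries farthest from the median. For Asns and the same sum r = 0.92 (permutation p = 1e-05, adjusted p = 0.000133) and rho = 0.902 (p = 1e-05), and r = 0.903 without such libraries. Hsp90b1 and Atf4 correlated with the satellite glia sum at r = 0.911 and 0.936 (permutation p = 1e-05 for both). For Herpud1 r was 0.229 with the neuron sum and 0.345 with the glia sum, and for Trib3 0.011 and 0.061 (adjusted permutation p of 0.0945 to 0.963). The share of TPM in protein-coding genes passed with 7 of the 10 genes, and other genes were not run for comparison. TPM in a library share 1 total, and the part of these properties in the correlations between the genes was not tested.

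The genes whose levels most resembled those of each stress gene were sought among 11541 protein-coding genes with a mean of at least 10 TPM, by Pearson's r over all 30 libraries on log2(TPM + 1), as a description. The nearest to Pdia4 were Pdia6 (r = 0.892), Hspa5 (0.877) and Dnajc3, an inhibitor of eIF2 kinases and BiP co-chaperone (0.853). The nearest to Hspa5 were Pdia4, Wdr82 (0.809) and Pdia6 (0.809), and to Pdia6 they were Pdia4, Hspa4l (0.825) and Zfp871 (0.818). To Hsp90b1 they were Il6st (0.890), the lectin chaperone gene Calr (0.885) and Scarb2 (0.873), and to Xbp1 they were Hspa5 (0.771), Fbxo30 (0.760) and Herpud1 (0.731). Pathway partners thus stood among the nearest genes of the chaperones and Xbp1.

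For the ATF4 pair the nearest were other genes. Atf4 was followed most closely by Dynll2 (0.944), the axonal motor gene Kif1a (0.938) and the neurotrophic receptor gene Ret (0.937), and Asns by Cab39 (0.954), Ids (0.929) and Ccni (0.926). Herpud1 had Bcat2 (0.808), Tex10 (0.805) and the cytosolic chaperone gene Dnajb1 (0.783). The highest r was 0.681 for Ddit3, with Prima1, followed by Notch1 (0.656) and Kcnn4 (0.645), and 0.652 for Trib3, with Mapk1ip1, followed by Zfp825 (0.584) and Cyp2j12 (0.569).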

How the data were processed

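Ribosomal RNA was depleted from total RNA with Ribo-Zero Plus and stranded libraries were made, per the labels' protocols. The submitters' processing notes name StringTie 2.2.1, STAR 2.7.10b and FastQC 0.12.1, and as builds GRCm39 and mm10, with no roles. The authors deposited 1 table of TPM per gene, which holds no read numbers, so depth and counting error are unknown. All 30 columns were used.

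Groups came from the labels' drug and day. In limma 3.58.1 (R 4.3.3) a single model of 10 group means was fitted to log2(TPM + 1), a pseudocount of 1 that understates changes of low genes, with a variance trend. Of 56686 genes, 19144 were at 0 everywhere and 25434 had 1 TPM or more in 3 or more libraries. P-values are 2-sided, adjusted by Benjamini-Hochberg within each of 18 comparisons. Repeated symbols kept the most abundant entry. Correlations used Python 3.11.15 and scipy 1.17.1, figures matplotlib 3.10.9.

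The genes, lists and tests were chosen with earlier results of these data known. By rule, fold changes are given for stress genes with an unadjusted p under 0.05, or else the smallest p, and for the list gene of smallest p; genes most alike are the 3 of highest r. Values for other genes, Xbp1 on day 2 and the intervals were given after they were seen. In a simulation of the CVAD and saline groups of day 8 (24568 genes) the test recovered 67.2% of genes changed 1.5-fold, 97% changed 2-fold and 98.5% changed 4-fold, and called 9 of 24368 unchanged genes. Its noise was independent between genes, and only genes above the level of Trib3 were changed. It changed 66 or 67 genes at each size, and such changes loosen the Benjamini-Hochberg cutoff. In the measured comparison 0% of tested genes were called, so the shares recovered are too high for a gene that changes alone.

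Alternatives were median-ratio scaling, a pseudocount of 0.1, quality weights, no filter, a model per day, a term for libraries 1 to 8, protein-coding genes alone and the omission of each library, and, added after the data were seen, scaling to protein-coding TPM.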

Additional observations from a re-analysis of the deposited data

Results flagged for a closer look

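For 3 results the groups lay apart from saline in opposite directions on the 2 days. Pdia6 in CVAD was below saline on day 2 and above it on day 8 in all 3 libraries of each day, and the day 8 response minus that of day 2 was 0.50 on the log2 scale (adjusted p = 0.123 by limma). Herpud1 did the same in CVAD, with a difference of 0.48 (adjusted p = 0.134), and in cyclophosphamide, with a difference of 0.36 (adjusted p = 0.32). None of the 3 passed the threshold over all genes, and the day 2 side of each rests on libraries 1 to 8.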

How the results depend on the processing

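The fold changes of 31 gene and comparison pairs and 19 counts were recomputed under up to 8 other settings and with each library of the comparison left out in turn. A model per day was not possible for the differences between days and for saline on day 8 against day 2. With 1 library left out all 31 fold changes kept their sign, with a smallest adjusted p of 0.103 by limma, and 0 of 10 genes were called in each of the 18 comparisons. Under the other settings 231 fold changes kept their sign and side of the threshold, 5 passed it in addition and 3 turned. Quality weights raised the number of all genes called from 11 to 98 for CVAD and from 3 to 50 for cyclophosphamide on day 2, and from 21 to 86 for the CVAD difference between days, where a term for libraries 1 to 8 left 1. After median-ratio scaling the stress genes at an unadjusted p under 0.05 numbered 5 and not 3 for CVAD on day 2, 6 and not 2 for cyclophosphamide and 2 and not 0 for dexamethasone on day 2, 4 and not 2 for the cyclophosphamide difference between days, and 2 and not 4 for CVAD against doxorubicin. After median-ratio scaling 1 gene was called in CVAD on day 2 (Pdia6) and 2 in the CVAD difference between days (Pdia6 at 0.55 and Herpud1 at 0.53), and also 2 when scaled to protein-coding TPM, a setting chosen after the data were seen. With a term for libraries 1 to 8, which shifts the day 2 groups, 3 values turned: Herpud1 to 0.072 in CVAD and 0.066 in cyclophosphamide on day 2, and Xbp1 to −0.065 in the CVAD difference between days. Correlated pairs numbered 21, 11 after median-ratio scaling and 14 to 25 with 1 library left out. No paired analysis was possible because the labels give no replicate number shared between groups. Depth is unknown, so how far counting error limits Trib3, the lowest gene, cannot be said. Of 67 genes changed 1.5-fold in simulated data 67.2% were recovered, and each of the 10 genes differed by less than this in the comparisons with saline. The simulation changed only genes above about 10 TPM, so none as low as Trib3. Its noise was drawn independently for each gene, without the correlations seen between genes. Its many changed genes loosened the cutoff of the adjusted p, so the share recovered is too high for a gene that changes alone.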
